A study of Homo sapiens with 16 samples.

Results

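The interaction of indole-3-pyruvate (I3P) with SR1 was examined in U-87MG cells, an established human glioblastoma line, over the whole 2 by 2 design of the study. All 16 of the 16 arrays entered it, 4 in each of 4 groups. DMSO cells received the carrier alone at 0.1%, I3P cells 25 µM I3P, SR1 cells 1 µM SR1, an antagonist of the aryl hydrocarbon receptor (AHR), and I3P + SR1 cells both compounds at these doses. All groups were of the same line, with no genetic change named in the labels, so the values speak for 1 tumour line in culture. For each of the 14040 genes measured, and for each of the 4 replicate numbers in the labels, the change from SR1 to I3P + SR1 was set against the change from DMSO to I3P. The difference of these 2 log2 changes, called the interaction here, is above 0 where the step made by I3P was larger on top of SR1 than on top of DMSO, and 0 where the steps were equal.

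The receptor, a transcription factor switched on by its ligands, rests in the cytosol with HSP90 and other chaperones. After binding a ligand it enters the nucleus, pairs with ARNT and binds a short DNA core, GCGTG, near genes such as CYP1A1, CYP1B1, AHRR and TIPARP. AHRR and TIPARP in turn hold the receptor down, and the cytochrome P450 enzymes of the CYP1 family oxidise many of its ligands. I3P is the keto acid left when the amino group of tryptophan is removed, and it and products formed from it are known as AHR ligands. An antagonist competes for the receptor and, in cells whose medium or metabolism already provides ligand, lowers the same target genes below their resting level.

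The RMA log2 values of the arrays had medians from 8.26 to 8.30. The I3P array of replicate 1 stood apart, with correlations of 0.877 to 0.910 with the other arrays where those 15 reached 0.921 to 0.979 among themselves. The interaction of replicate 1 was accordingly the most widely spread over genes (SD 0.65, against 0.39 to 0.46 in replicates 2 to 4), and interactions without replicate 1 are given where they moved by over 1.5 times. Replicates 1 and 2 carry the title series SLI and replicates 3 and 4 the series SMI. VIM and CD44, carried by mesenchymal glioma cells, lay at the 99.8 and 86.4 percentile of all genes in DMSO. The glioma markers CHI3L1 and NES lay at the 96.5 and 26.5 percentile, and the astrocyte gene GFAP at the 28.5 percentile. Markers of other cell types were not all low. PTPRC and CD3E of blood cells lay at the 8.87 and 26.8 percentile, EPCAM of epithelium at 33.7 and SNAP25 of neurons at 61.1. AHR itself was at the 96.5 percentile and ARNT at the 86.1 percentile. In bulk RNA, fewer cells with a transcript and less of it per cell cannot be told apart, and the p-values below measure only the spread between these arrays, which the labels call biological replicates.

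CYP1B1, which oxidises oestrogens and polycyclic hydrocarbons, had the smallest p of all genes for the interaction. Its log2 level was 10.71, 10.84, 10.92 and 10.93 in replicates 1 to 4 of DMSO and 11.01, 11.11, 11.34 and 11.33 in I3P. It was 8.36, 8.40, 8.17 and 8.20 in SR1 and 10.56, 10.53, 11.15 and 11.11 in I3P + SR1. The 4 SR1 arrays lay below the other 12, and of the I3P + SR1 arrays the 2 of SLI lay below every DMSO and I3P array and the 2 of SMI among them. The step made by I3P was thus 0.35 ± 0.07 (SD, n = 4) from DMSO and 2.56 ± 0.45 from SR1, which is 5.89-fold in the second case. The interaction was 1.90, 1.87, 2.56 and 2.52 in replicates 1 to 4, with a mean of 2.21 ± 0.38 (SD, n = 4; 95% interval 1.78 to 2.64), a 4.63-fold difference between the steps. Read the other way, the difference SR1 minus DMSO was -2.57, and I3P + SR1 minus I3P was -0.36. The 2 SLI values (mean 1.89) and the 2 SMI values (mean 2.54) did not overlap, and with 2 values a side that difference was not tested.

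**Figure D1:**
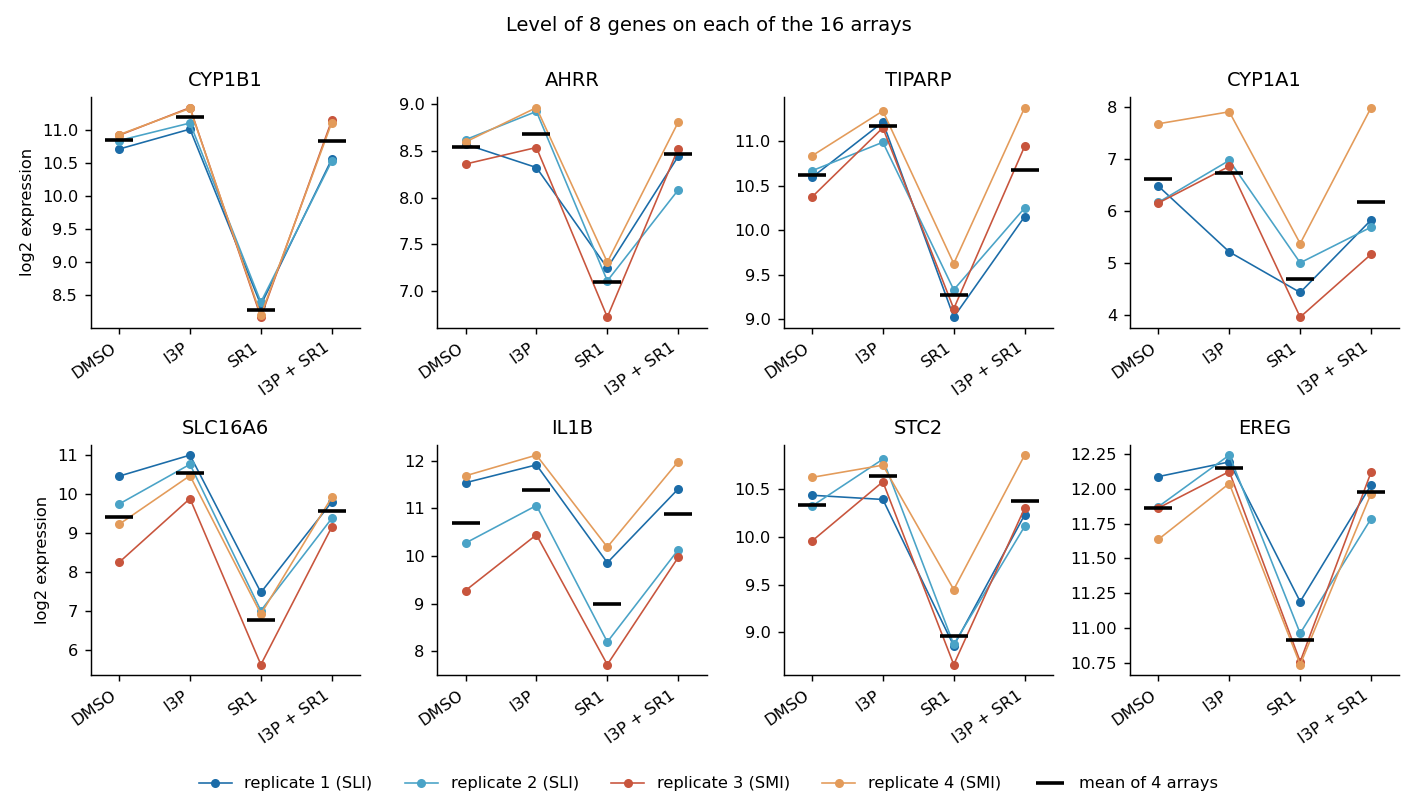
Log2 expression (vertical axis) of 8 genes on each of the 16 arrays, by condition, with a coloured line for each replicate number and a black bar for the mean of 4 arrays. CYP1B1 lay between 8.17 and 8.40 in SR1 and between 10.53 and 11.34 in the other groups, whereas the CYP1A1 lines of different replicates cross.

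Across all genes, no interaction passed an adjusted p under 0.05 in limma's test on the 4 replicate values (0 of 14040 genes, 0%). At an unadjusted p under 0.05 there were 553 genes (3.94%), 291 above 0 and 262 below 0. The smallest adjusted p was 0.0997, shared by CYP1B1 (SE 0.18) and SLC16A6. A limma fit over the 16 arrays with a mean for each group, which draws on more residual degrees of freedom, called CYP1B1 and no other gene (1 of 14040, 0.00712%), with an adjusted p of 0.000136 and an SE of 0.21. Of 18 alternative settings tried, CYP1B1 passed in 6 and kept its sign in 18, with values from 1.89 to 2.54.

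The AHR target battery, a list of 12 genes that AHR induces in many cell types, had 11 members on the array. It was written with earlier results of these arrays known, so the counts below are a description and no independent evidence. For 6 of the 11 the interaction was above 0 at an unadjusted p under 0.05, against 2.07% of all genes, and for 0 it was below 0 at that p, against 1.87%. All 4 replicate values were above 0 for 7 members, against 5.85% of all genes. The median of the members was 0.71, that of all genes 0.01 (-0.02 without replicate 1), and without replicate 1 the battery's median was 0.88. None of the 11 passed the adjusted threshold in the test on replicate values, so CYP1B1 in the fit over 16 arrays is the 1 call among them.

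AHRR, the AHR repressor, had all 4 replicate values above 0. Its level was 8.57, 8.62, 8.36 and 8.60 in DMSO and 8.32, 8.92, 8.54 and 8.96 in I3P. It was 7.25, 7.11, 6.72 and 7.31 in SR1 and 8.44, 8.08, 8.53 and 8.81 in I3P + SR1. The SR1 arrays again lay below the other 12, with a mean at the 7.55 percentile of all genes, and the remaining groups overlapped. The interaction was 1.44, 0.67, 1.63 and 1.13, a mean of 1.22 ± 0.42 (SD, n = 4; unadjusted limma p 0.000434, adjusted 0.761).

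TIPARP, which attaches ADP-ribose to AHR and shortens its action, was also lowest in SR1 and highest in I3P by group mean. Its level was 10.59, 10.67, 10.37 and 10.84 in DMSO and 11.21, 10.99, 11.15 and 11.34 in I3P. It was 9.02, 9.33, 9.12 and 9.63 in SR1 and 10.15, 10.25, 10.94 and 11.38 in I3P + SR1. Here the I3P arrays also lay above all DMSO arrays, by a mean of 0.56 against 1.41 on top of SR1. The interaction was 0.51, 0.60, 1.05 and 1.25, with a mean of 0.85 ± 0.35 (SD, n = 4; unadjusted limma p 0.00214, adjusted 0.998).

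CYP1A1, the classical AHR-induced monooxygenase, had the widest replicate values of the battery. Its interaction was 2.66, -0.12, 0.50 and 2.38, with a mean of 1.35 ± 1.37 (SD, n = 4), and 0.92 without replicate 1. On the I3P array of replicate 1 its level was 5.22, below the 6.16 to 7.68 of the DMSO arrays. By group mean it stood near the bottom of all genes in every group, where RMA compresses differences. Its percentiles were 1.22 in DMSO, 1.67 in I3P, 0.0 in SR1 (levels 3.97 to 5.38) and 0.23 in I3P + SR1. SERPINB2, an inhibitor of plasminogen activators that AHR ligands induce in several cell types, had 0.37, 0.87, 1.24 and 1.24 (mean 0.93 ± 0.41), and CYP1A2, an enzyme of the liver, had 0.22, 0.78, 0.57 and 1.29 (mean 0.71 ± 0.45). The step of CYP1A2 was -0.17 from DMSO, above 0 in 1 of 4 replicates, and 0.54 from SR1. Its group mean was highest in I3P + SR1 (8.98, against 8.78 in DMSO and 8.61 in I3P). The remaining members lay close to 0. NQO1, a quinone reductase, had a mean of 0.26, or 0.15 without replicate 1, and the transcription factor NFE2L2 0.13, or 0.31 without it. The drug exporter ABCG2 had 0.18, the amino acid transporter SLC7A5 0.07 and the aldehyde dehydrogenase ALDH3A1 -0.16.

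Of the 20 genes with the smallest p, 17 had an interaction above 0 and 3 below 0, and in all 20 the 4 replicates shared the sign, which the choice by p favours. Their unadjusted p ran from 7.34e-06 to 0.00201. Several were dim, with a mean level under the 20 percentile of all genes. These were SLC9C2, NTN3, SNTG2, ADAMTS18, FAM20A, PDE8B and LINC00668. SR1 was the lowest of the 4 group means in 16 of the 17 genes above 0, and in 9 the SR1 arrays lay below all 12 others. These 9 were CYP1B1, SLC16A6, PLEKHG4B, STC2, AHRR, ADAMTS18, CDC42EP2, EREG and ALDH1A3.

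**Figure D2:**
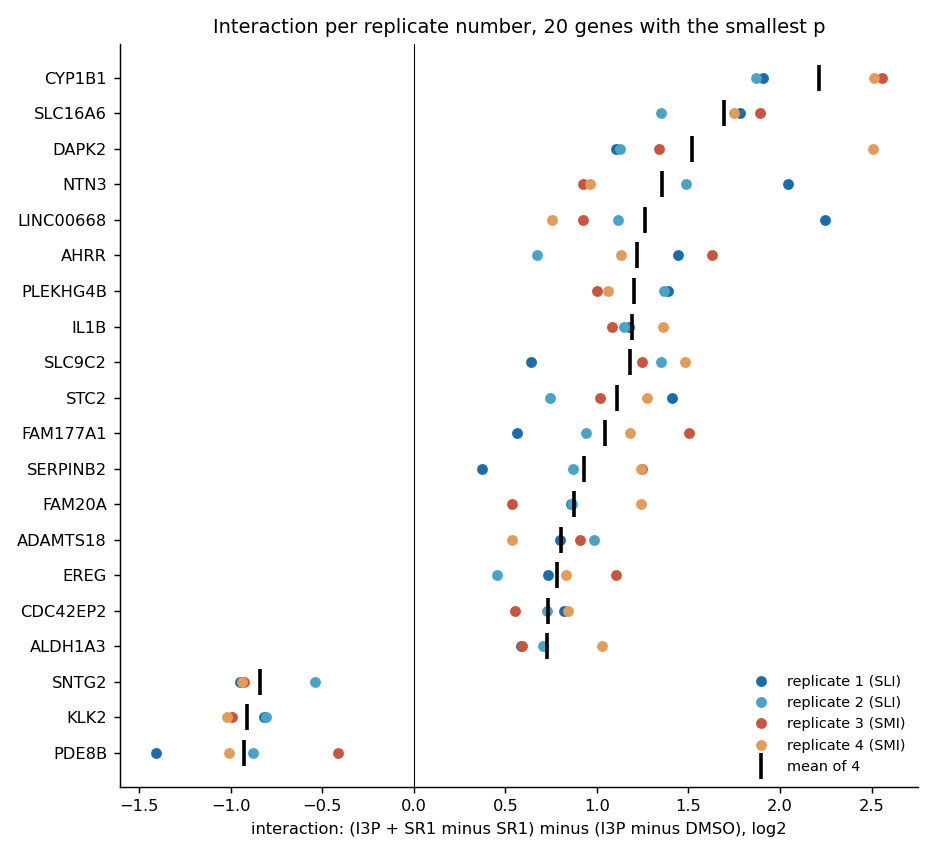
Interaction (horizontal axis, log2) for each replicate number of the 20 genes with the smallest p, as coloured points, with a black bar for the mean of 4. CYP1B1 lies between 1.87 and 2.56 and all 20 genes keep 1 side of 0, DAPK2 with a value of 2.51 in replicate 4 that lies apart from its other 3.

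SLC16A6, a transporter of the monocarboxylate family, differed from CYP1B1 in that I3P without SR1 already gave a large step. Its level was 10.46, 9.75, 8.25 and 9.23 in DMSO and 11.00, 10.77, 9.89 and 10.48 in I3P. It was 7.48, 7.01, 5.63 and 6.93 in SR1 and 9.80, 9.38, 9.16 and 9.92 in I3P + SR1. The 4 SR1 arrays lay below all others, and within each replicate number the I3P array was the highest. By group mean it stood at the 2.16 percentile of all genes in SR1, so its step from SR1 began near the bottom. The step was 1.11 from DMSO and 2.80 from SR1, and the interaction 1.78, 1.35, 1.89 and 1.75, a mean of 1.69 ± 0.24 (SD, n = 4; SE 0.15).

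IL1B, the cytokine interleukin-1 beta, had levels that differed widely between replicates. They were 11.54, 10.27, 9.27 and 11.68 in DMSO and 11.91, 11.06, 10.44 and 12.12 in I3P. They were 9.86, 8.19, 7.72 and 10.18 in SR1 and 11.41, 10.13, 9.97 and 11.98 in I3P + SR1. The groups overlapped, yet in each replicate number SR1 was lowest and I3P highest, and the interaction was 1.17, 1.15, 1.08 and 1.36, a mean of 1.19 ± 0.12 (SD, n = 4; adjusted limma p 0.313). That SD was among the smallest of the 20 genes.

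STC2, a secreted glycoprotein induced in the integrated stress response, and EREG, a ligand of the epidermal growth factor receptor, had SR1 arrays below all others. STC2 was 10.43, 10.32, 9.95 and 10.62 in DMSO, 10.39, 10.81, 10.57 and 10.75 in I3P, 8.86, 8.88, 8.66 and 9.45 in SR1, and 10.23, 10.11, 10.30 and 10.85 in I3P + SR1. Its interaction was 1.41, 0.74, 1.01 and 1.28, a mean of 1.11 ± 0.30 (SD, n = 4; adjusted limma p 0.748). EREG was 12.09, 11.87, 11.86 and 11.64 in DMSO, 12.19, 12.24, 12.12 and 12.04 in I3P, 11.19, 10.96, 10.76 and 10.74 in SR1, and 12.03, 11.79, 12.12 and 11.97 in I3P + SR1. Its interaction was 0.73, 0.45, 1.10 and 0.83, a mean of 0.78 ± 0.27 (SD, n = 4). In both genes the I3P + SR1 arrays overlapped those of DMSO and of I3P.

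In another 4 genes, too, the SR1 arrays lay below all others. PLEKHG4B had a mean interaction of 1.20 ± 0.20, with replicate values from 1.00 to 1.39. ALDH1A3, which makes retinoic acid, had 0.73 ± 0.21, ADAMTS18, a secreted metalloprotease, 0.80 ± 0.20, and CDC42EP2, an effector of the GTPase CDC42, 0.73 ± 0.13 (SD, n = 4 for each). Their steps from DMSO were 0.32, 0.23, 0.08 and 0.13. In SR1 the means of PLEKHG4B and ADAMTS18 were near the bottom, at the 4.61 and 0.63 percentile of all genes. Those of ALDH1A3 and CDC42EP2 lay at 91.4 and 33.3.

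Another 6 of the 17 had a mean step below 0 from DMSO and a mean step above 0 from SR1. NTN3, a netrin, had -0.59 and 0.76, LINC00668, a long non-coding RNA, -0.57 and 0.69, and SLC9C2, of the sodium-proton exchanger family, -0.46 and 0.72. FAM20A, a pseudokinase of the secretory pathway, had -0.25 and 0.63, DAPK2, a death-associated protein kinase, -0.19 and 1.32, and FAM177A1 -0.14 and 0.90. For DAPK2 and FAM177A1 the replicates did not share the sign of the step from DMSO. It was above 0 in 2 of 4 replicates of each, with SDs of 1.27 and 1.04. It was above 0 in 0 of 4 for NTN3 and in 1 of 4 for LINC00668, SLC9C2 and FAM20A. The interaction of FAM177A1, 1.05 on the row kept, was 0.30 with the rows of this symbol averaged. None of these steps passed an adjusted p under 0.05. By group mean SLC9C2 lay between the 0.34 and 4.36 percentile of all genes, and LINC00668 between 0.47 and 9.27. NTN3 lay between 0.85 and 8.90 in DMSO, I3P and SR1. Steps this near the bottom may hold little signal. For LINC00668 the mean interaction of 1.26 went to 0.93 without replicate 1, whose I3P array read 5.08 against 6.74 to 7.56 in the other 3.

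The 3 genes below 0 were KLK2, PDE8B and SNTG2. KLK2, a kallikrein protease known from prostate, had replicate values from -1.02 to -0.81, a mean of -0.91 ± 0.11 (SD, n = 4; adjusted limma p 0.748). Its I3P step was 0.05 from DMSO and -0.86 from SR1. PDE8B, which breaks down cyclic AMP, had a mean interaction of -0.93 ± 0.41, and SNTG2, a syntrophin of the membrane scaffold, -0.84 ± 0.20. In both, the step was above 0 from DMSO (0.45 and 0.58) and below 0 from SR1 (-0.48 and -0.27). The group means of SNTG2 lay between the 0.28 and 3.02 percentile of all genes.

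**Figure D3:**
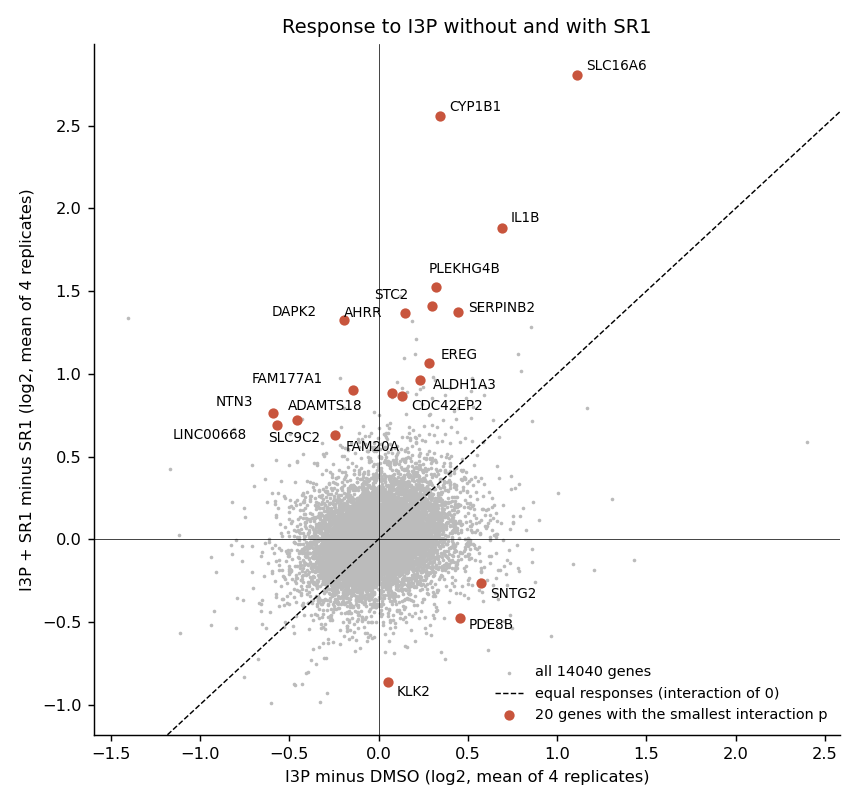
Mean step made by I3P from DMSO (horizontal axis) against that from SR1 (vertical axis), both log2, for all 14040 genes in grey and the 20 genes with the smallest interaction p in red. Points on the dashed line have an interaction of 0, and CYP1B1 lies at 0.35 and 2.56, above that line.

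The 2 steps that make up the interaction were also tested on their own, on arrays they do not share. From DMSO, I3P gave 0 called genes of 14040 in limma's test (0%), with 536 at an unadjusted p under 0.05 (3.82%), a smallest adjusted p of 0.941, and 0 calls in each alternative setting. From SR1, it gave 24 (0.171%), with 1519 at an unadjusted p under 0.05 (10.8%). Of these, 23 rose (0.164%) and 1, POSTN, a matrix protein, fell (0.00712%). A call on 1 side and not on the other does not show a difference, which is what the interaction tests, and 0 genes passed there. Leaving out any 1 replicate number left 0 calls on the remaining 3 values a gene, with smallest adjusted p from 0.0605 to 0.143, and without replicate 1 the steps of CYP1B1 and IL1B were 2.67 and 1.99.

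Members of the AHR target battery among the 23 were CYP1B1 (adjusted p 0.0116), SERPINB2 (0.021) and AHRR (0.0363), 3 of the 11 measured, and TIPARP missed with 0.0585. IL1B rose by 1.88 and STC2 by 1.41 (adjusted p 0.0116 for each). Secreted factors were IGFBP1 and IGFBP3, which bind insulin-like growth factors, and the collagenase MMP1, which rose by 1.02, 0.87 and 0.75. Of regulators, NPAS2, a partner of ARNT-like clock proteins, rose by 0.88, the homeobox gene DLX2 by 0.89, the early response gene IER3 by 0.76 and the kinase RIPK4 by 1.12.

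The step from DMSO, measured on the other 8 arrays, was above 0 for 22 of these 23 genes (95.7%, against 45.6% of all genes), and without replicate 1 the count was again 22. In 10 of the 23 all 4 replicates were above 0 (43.5%, against 6.10% of all genes). Its size was smaller, with a median of 0.29 from DMSO and 0.96 from SR1, and all 23 genes had an interaction above 0, with a median of 0.73. The genes were chosen for their step from SR1, which favours a larger value on that side. The steps came closest to each other in IGFBP1, with 0.80 from DMSO and 1.02 from SR1, and in the antisense transcript ZNF295-AS1, with 0.86 and 1.29. The interaction of IGFBP1 was 0.22 ± 0.63 (SD, n = 4), with 3 of 4 replicates above 0. ZNF295-AS1 lay at the 0.07 percentile of all genes in SR1, where RMA compresses differences. Also near the bottom in SR1 were POLR2M (0.14), HS3ST2 (0.14), ST8SIA5 (0.36) and RIPK4 (1.07). They lay furthest apart in CYP1B1. Only POLR2M had a step below 0 from DMSO, -0.09.

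**Figure D4:**
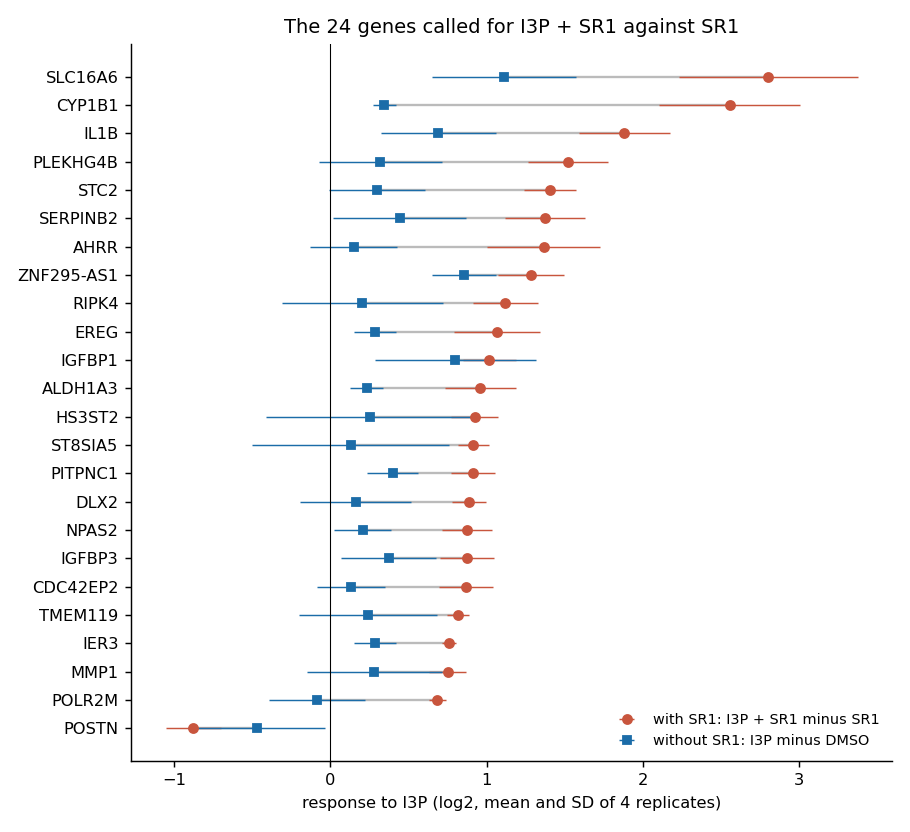
Step made by I3P (horizontal axis, log2, mean with bars for the SD of 4 replicates) without SR1 as blue squares and with SR1 as red circles, for the 24 genes called for I3P + SR1 against SR1. The red circle of each of the 23 genes that rose lies to the right of its blue square, from 0.68 in POLR2M to 2.80 in SLC16A6.

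Which group set the interaction apart was read from the levels. All 4 SR1 arrays lay below the other 12 for 59 genes (0.42% of 14040) and above them for 33 (0.235%). The same counts were 2 and 2 for DMSO (0.0142% each), 6 below (0.0427%) and 10 above (0.0712%) for I3P, and 4 below (0.0285%) and 2 above (0.0142%) for I3P + SR1. Without replicate 1, over 12 arrays, the SR1 counts were 142 and 142, and those of the other groups between 13 and 56. The 59 genes included 4 of the 11 battery members, CYP1B1, AHRR, TIPARP and NFE2L2. By construction a gene whose SR1 arrays alone are low tends to an interaction above 0, which 57 of the 59 had, with a median of 0.44. On the DMSO and I3P arrays, 56 of the 59 were higher in I3P, with a median step of 0.21, against 45.6% of all genes. The choice of the 59 also used these arrays, so that count is a description and no independent evidence. Among the 33 genes high in SR1 were the kinin receptor BDKRB1, the adhesion molecule ALCAM, the Wnt inhibitor DKK1 and the retinoid carrier CRABP2, and 32 of them had an interaction below 0.

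A list of 41 other genes reported to respond to AHR ligands, partly gathered with earlier results of these arrays known and thus no independent evidence, had 38 measured. Of these, 15 were above 0 and 2 below 0 at an unadjusted p under 0.05, against 2.07% and 1.87% of all genes, and the median was 0.28, or 0.21 without replicate 1. The genes of the receptor complex and its cofactors did not share this. For 0 of 20 was the interaction above 0 at that p and for 1 below it, which was AHR itself. AHR had -0.44, -0.49, -0.17 and -0.28, a mean of -0.35 (unadjusted limma p 0.0445), and its mean level was 11.46 in SR1 and between 11.16 and 11.20 in the other groups. The median of the 20 genes was -0.03, or -0.08 without replicate 1.

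By their medians, lists of other processes lay nearer to all genes than the AHR target battery and the list of other AHR-responsive genes. By the share of members above 0 not all of them did. That share was 73.7% in the list of other AHR-responsive genes. It was 76% in the integrated stress response, 76.5% in cholesterol synthesis and uptake, and 78.9% in endoplasmic reticulum folding and stress. Among 20 targets of TGF-beta and YAP signalling, 4 were above 0, against 51.6% of all genes, with a median of -0.16, or -0.24 without replicate 1. Their replicate medians were 0.03, 0.00027, -0.35 and -0.37, so the medians below 0 were those of the SMI series. Of the 20 genes, 0 reached an unadjusted p under 0.05. ID2, an inhibitor of helix-loop-helix factors, was the lowest with -0.59. Among 25 genes of the integrated stress response 19 were above 0 with a median of 0.20, but the median was 0.03 without replicate 1, and STC2 was the 1 member with an unadjusted p under 0.05. For 17 genes of cholesterol synthesis and uptake the median of 0.10 was 0.0018 without replicate 1, and INSIG1, which holds back sterol synthesis, had 0.68.

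The experiment label names migration, and of 30 migration and mesenchymal genes 13 were above 0, with a median of -0.05 and 0 at an unadjusted p under 0.05. The 28 genes of mitosis, the 18 of the NRF2 antioxidant response and the 19 of tryptophan breakdown and transport also had 0 at that p in either direction. In the hypoxia list VEGFA (0.60, or 0.39 without replicate 1) and NDRG1 (0.36) were above 0 at that p, 2 of 25, against 2.07% of all genes. Of 16 genes of the retinoid list 8 were above 0, with a median of 0.01, or 0.04 without replicate 1. ALDH1A3 was above 0 at that p, against 2.07% of all genes. CYP26B1, which clears retinoic acid, and CRABP2 were below 0 at that p, with -0.65 and -0.50, against 1.87%. Of 22 genes of the cytokine list 11 were above 0, with a median of -0.02, or -0.0036 without replicate 1. IL1B lay above 0 at that p and IL6 below it, with -0.51, or -0.05 in the 16-array fit with array weights. Marker lists of neurons, epithelium, endothelium and blood cells had medians from -0.10 to 0.01, or from -0.09 to 0.20 without replicate 1, where the neuronal median went from -0.10 to 0.06. At that p were 3 of their 29 genes, SYP and KDR above 0 and MAP2 below it, against 3.94% of all genes in either direction.

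**Figure D5:**
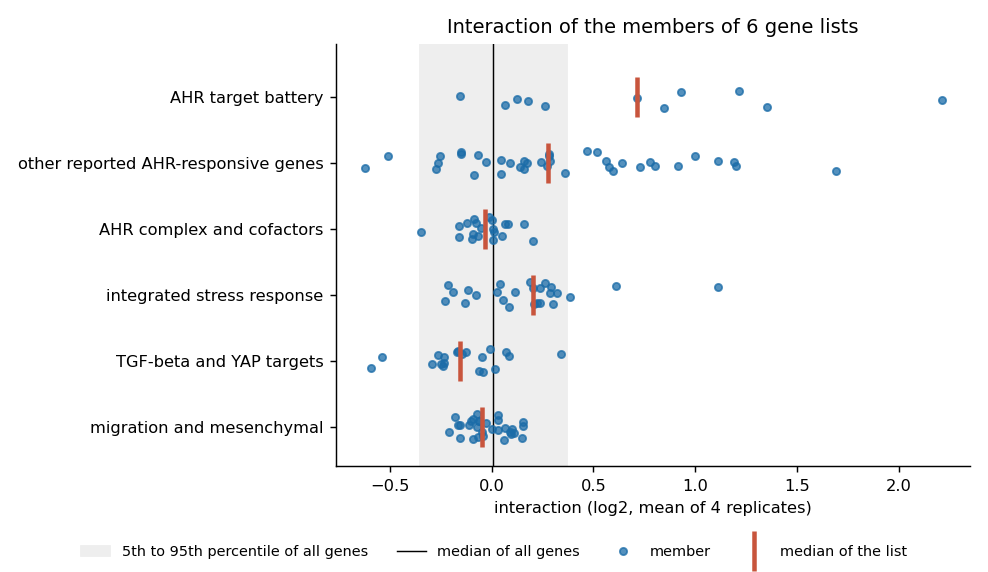
Interaction (horizontal axis, log2, mean of 4 replicates) of each measured member of 6 gene lists as points, with a red bar for the median of the list and a grey band for the 5th to 95th percentile of all genes. The median of the AHR target battery is 0.71, and those of the AHR complex and the migration genes are -0.03 and -0.05.

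The interaction was computed on log2 values and so compares fold changes. On the linear scale of 2 to the power of the value, which compares differences in signal, 19 of the 20 genes with the smallest p kept their sign. The exception was SLC16A6, whose linear interaction averaged -92.4 with 2 of 4 replicates above 0. For CYP1B1 the linear value was 1050 with 4 of 4 above 0, for EREG 1302 with 4 of 4, and for SERPINB2 809 with 2 of 4. The I3P + SR1 and SR1 arrays stand in a different order in the titles of the 2 series, and in both series the lowest CYP1B1 value of each replicate number was on the array labelled SR1.

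The promoters of 4 genes whose SR1 arrays lay below all others are shown because the core bound by AHR and ARNT can be read in them. Each is the 250 bases before the RefSeq gene start (GRCh38.p14), 5′ to 3′ on the strand of the gene, with every GCGTG, or CACGC where the core lies on the opposite strand, in capitals. They are AHRR (chr5:321464-321713, plus strand), TIPARP (chr3:156674340-156674589, plus strand), STC2 (chr5:173328415-173328664, minus strand) and EREG (chr4:74364895-74365144, plus strand).
AHRR: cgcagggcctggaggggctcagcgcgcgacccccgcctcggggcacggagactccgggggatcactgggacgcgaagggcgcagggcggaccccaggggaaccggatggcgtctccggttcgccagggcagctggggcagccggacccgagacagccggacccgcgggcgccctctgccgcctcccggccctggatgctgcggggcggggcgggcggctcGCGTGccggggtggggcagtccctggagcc
TIPARP: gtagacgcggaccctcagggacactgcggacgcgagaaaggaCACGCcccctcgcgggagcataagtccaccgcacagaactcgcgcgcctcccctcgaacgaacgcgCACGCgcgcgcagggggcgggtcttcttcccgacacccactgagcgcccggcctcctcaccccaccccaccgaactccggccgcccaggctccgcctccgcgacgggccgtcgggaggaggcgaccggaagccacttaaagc
STC2: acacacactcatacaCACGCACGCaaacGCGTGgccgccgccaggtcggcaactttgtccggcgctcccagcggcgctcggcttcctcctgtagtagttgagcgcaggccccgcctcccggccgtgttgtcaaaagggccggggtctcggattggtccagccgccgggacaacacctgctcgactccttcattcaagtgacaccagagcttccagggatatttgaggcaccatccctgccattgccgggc
EREG: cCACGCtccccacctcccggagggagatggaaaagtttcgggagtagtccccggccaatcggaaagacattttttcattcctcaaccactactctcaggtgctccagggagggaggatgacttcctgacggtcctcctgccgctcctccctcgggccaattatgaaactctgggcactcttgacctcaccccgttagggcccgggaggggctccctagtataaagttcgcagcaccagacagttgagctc
The core occurred 1 time in AHRR, 2 times in TIPARP, 3 times in STC2, where 2 of the matches share a base, and 1 time in EREG. Of the 20 genes with the smallest interaction p, 14 had a promoter in the RefSeq table, and 9 of these 14 (64.3%) held the core at least once. The same was true of 8712 of all 27305 promoters of that length (31.9%), and base composition was not taken into account. SNTG2, whose interaction was below 0, was among the 9. PLEKHG4B, whose SR1 arrays also lay below all others, held the core 0 times, as did IL1B and SERPINB2. The interaction means of the 4 genes were 1.22, 0.85, 1.11 and 0.78 in the order printed, and a match in the letters is a description, not a site shown to be bound.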

How the data were processed

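Total RNA of U-87MG cells was labelled from 100 ng with an Affymetrix whole-transcript kit, per the labels' protocols. The deposited values are log2 expression levels, 1 per transcript cluster and array, made by the authors with oligo and RMA, per the submitters' processing notes. RMA corrects background, quantile normalises and summarises probes, and it compresses differences of dim genes. The build is not given in the sources used here, nor are software versions or the treatment time. No detection calls were used, and the number of arrays limits the precision.

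Of 16510 rows, 14096 had 1 gene symbol, 795 several and 1619 none. For the 52 genes with more than 1 row the row with the highest mean was kept, which left 14040 genes. Of their symbols, 12952 were current in the RefSeq gene table and 1088 older. No 2 arrays were duplicates, the smallest root mean square difference being 0.258.

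Within each replicate number the interaction and both I3P steps were taken, and the 4 values were tested against 0 with limma 3.58.1 (lmFit, eBayes) in R 4.3.3, with two-sided p adjusted by Benjamini-Hochberg over 14040 genes and a threshold of 0.05. SDs are over the 4 replicates, and SEs and 95% intervals are limma's. The pipeline was tested on simulated data. Of 24 pairs of arrays with the same replicate number, 20 had deviations from their group means that correlated above 0.1 (range -0.088 to 0.651), so not all pairs met the rule for a pairing. The rule for named genes took, with fewer than 10 passing, the 20 with the smallest interaction p (pseudogenes, small RNAs and uncharacterised loci skipped), the AHR target battery and complex, further AHR-responsive genes at an unadjusted p under 0.05, up to 3 members of each other list, and up to 8 genes for each I3P step. The other genes named among those called on top of SR1, or high in SR1, were picked after their values were seen. Members, lists and the naming rule were chosen with earlier results of these data known. Alternatives were fits over 16 arrays, single series, left-out replicates, filters, normalisations and eBayes options, and, chosen after seeing the data, the linear scale and counts without replicate 1.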

Additional observations from a re-analysis of the deposited data

Results flagged for a closer look

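Of 31 sets of 4 replicate values examined, 2 held a value that stood apart from the other 3 by Dixon's criterion, and chance marks about 1 in 20. The interaction of DAPK2 in replicate 4 was 2.51, against 1.10 to 1.34 in replicates 1 to 3, and its DMSO level there was 9.78, against 6.85 to 7.53. The interaction of SNTG2 in replicate 2 was -0.54, against -0.95 to -0.93 in the others.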

How the results depend on the processing

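The 0 calls for the interaction became 1, CYP1B1, in fits over 16 arrays with no replicate block (adjusted p 0.000136), with the replicate block (0.000383), with array weights (9.62e-05) and with SLI or SMI as the block (4.08e-05). They became 2, CYP1B1 and SLC16A6, with dim genes left out, where the number of genes tested was 11232. Leaving out a replicate gave 0 calls each time, and leaving out the I3P array of replicate 1 alone, with the replicate block, gave 1. CYP1B1 had the smallest p in every setting except within SLI and with eBayes trend. The 24 calls for I3P + SR1 against SR1 became 16 with no replicate block (11 shared), 45 with the replicate block (17 shared) and 57 with dim genes left out. They were 0 within SLI, within SMI, with eBayes trend and without any 1 replicate, and 104 (20 shared) in the fit with the replicate block and without the I3P array of replicate 1, 2 changes at once. Fewer samples enter the fits within a series and without a replicate, and for the others the cause was not tested. FAM177A1 was 1.56 and 1.55 without the I3P array of replicate 1 and with array weights. I3P against DMSO gave 0 calls in each setting, with smallest adjusted p from 0.177 to 0.999. No value changed sign with a call.

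With 4 arrays a group, steps under the replicate spread could not be seen, and for dim genes signal over background was not assessed. The arrays of a replicate number share a title code whose meaning the labels do not give, and of the 4 pairs that did not correlate above 0.1, 3 held the I3P array of replicate 1. An exchange of the labels SR1 and I3P + SR1 in all replicates could not be seen in the values.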

Other observations

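Outside the report's lists of AHR genes, a few groups of genes had single members at an unadjusted p under 0.05 for the interaction. Of 26 immediate early genes, IER3 was above 0 with 0.47 and DUSP5, a phosphatase of ERK, below 0 with -0.61. Of 21 interferon-stimulated genes 1, IFIT3, was above 0. Among all genes 2.07% were above 0 at that p and 1.87% below. The medians were 0.05 for both of these lists, or 0.02 and 0.13 without replicate 1, and 0.01 for all genes. Among 13 markers of glioma and astrocyte identity the median was 0.06, or -0.04 without replicate 1.

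The genes with the smallest p for I3P against DMSO, none of which passed the adjusted threshold, included some with a different shape. ANXA10, an annexin, had a step of 0.79 from DMSO and -0.19 from SR1, with interaction values of -1.42, -0.32, -0.82 and -1.36. SLC6A2, the noradrenaline transporter, had 0.72 and -0.13, with interaction values of -1.33, -0.08, -1.07 and -0.91. In both, the 4 replicate values were below 0. The choice by the step from DMSO favours this sign, because the interaction subtracts that step.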
